A study of Mus musculus with 12 samples.

Results

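The comparison described here is the average effect of stanniocalcin-1 on the transcriptome of NIH-3T3 cells, an immortalised line of mouse embryonic fibroblasts. All 12 libraries of the series took part, 6 from cells given recombinant stanniocalcin-1 and 6 from cells without it, chosen by treatment label alone. The 6 libraries with the protein were 3 of group STC1, which received stanniocalcin-1 at 100 ng/mL, and 3 of group TS, which received the same dose together with TGF-β1 at 10 ng/mL. The 6 without it were 3 of group Con, which received PBS, and 3 of group TGFb1, which received TGF-β1 at 10 ng/mL alone. Treatment lasted 24 h in every group. TGF-β1 was thus present in 3 libraries on each side, and it entered an additive model as the second factor, so that the stanniocalcin-1 coefficient is a log2 fold change averaged over both backgrounds. Of 16300 genes in the table, 11763 passed the low count filter and were tested. The series describes the 3 libraries of a group as biological replicates and the labels name no batch. The material is 1 immortalised line at 1 dose and 1 time.

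Stanniocalcin-1 is a secreted glycoprotein hormone first known from the control of blood calcium in bony fishes. In mammals it is made in many tissues and acts mostly near the cells that release it, and it binds and inhibits the protease PAPP-A, which frees insulin-like growth factors from their binding proteins. TGF-β1 is the best known inducer of matrix production in fibroblasts. The title of the series names scar formation and the PI3K/AKT pathway, and the lists of genes described below include collagens, other matrix proteins and that pathway.

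The libraries held between 16867600 and 18521800 expected counts each. Summed levels of 12 fibroblast markers, led by Col1a2, Col1a1 and Vim, lay between 13602 and 14517 CPM, counts scaled to library size, with stanniocalcin-1 and between 13622 and 15314 CPM without it. Sums of the 6 epithelial markers found in the table, of 10 listed, reached at most 1.36 CPM with the protein and 0.967 CPM without it, and 11 of 12 macrophage markers summed to between 8.54 and 11.0 CPM with it and between 8.33 and 9.94 CPM without it. The macrophage sum came mainly from Cd14 and Cd68. The 9 of 10 endothelial markers found in the table summed to at most 4.30 CPM with the protein and 4.85 CPM without it. Adipocyte markers, 9 of 11 in the table and led by Lpl, summed to between 32.8 and 37.2 CPM with it. Without it their sum lay between 34.5 and 37.0 CPM. Stc1 itself, the mouse gene for the hormone, had 10.82 ± 1.12 CPM with the added protein and 10.94 ± 1.07 CPM without it (SD over both backgrounds, n = 6 each). Its log2 fold change was -0.017 with a 95% interval from -0.15 to 0.12. Added protein leaves no transcript, so this level does not check the labels. In bulk libraries such as these, fewer cells of a type and less RNA per cell cannot be told apart.

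Stanniocalcin-1 was followed by higher levels of 5 genes and by a called fall of none. The 5 were Mt1, a metallothionein that binds zinc and copper; Tnfrsf12a, the cell surface receptor (Fn14) for the cytokine TWEAK; Dynll1, a light chain of the dynein motor; Lgals3, the galactose-binding lectin galectin-3; and Rps4x, a protein of the small ribosomal subunit. All of these changes were small, with a median fold of 1.08 and a largest rise of 10.1%, for Mt1. The 5 genes are 0.0425% of the genes tested by edgeR's quasi-likelihood test at an adjusted p under 0.05. No gene was called lower (0% of the genes tested), although 924 genes (7.86%) had an unadjusted p under 0.05, 418 of them with a negative coefficient. DESeq2 called 7 genes lower and limma-voom called 0.

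The 300 bases around the start of each of these genes are shown because the 5 genes form the whole set of called changes. Mt2, the neighbour of Mt1 on chromosome 8, is added because both metallothioneins are textbook targets of the zinc sensor MTF1, which binds metal response elements. The sequences are those of RefSeq on build GRCm38.p6, from 250 bases before the start to 50 after it, read 5′ to 3′ on the gene's own strand and matched by gene number, since the authors' table was made on GRCm39. All 6 genes had 1 entry. In Mt1 (chr8:94178839-94179138, plus strand) and Mt2 (chr8:94172368-94172667, plus strand), capitals mark TGCNCNC on either strand. This string is a looser form of the metal response element core. In Tnfrsf12a (chr17:23677400-23677699, minus strand), Dynll1 (chr5:115300941-115301240, minus strand), Lgals3 (chr14:47373610-47373909, plus strand) and Rps4x (chrX:102189342-102189641, minus strand), capitals mark the GC box GGGCGG on either strand.
Mt1: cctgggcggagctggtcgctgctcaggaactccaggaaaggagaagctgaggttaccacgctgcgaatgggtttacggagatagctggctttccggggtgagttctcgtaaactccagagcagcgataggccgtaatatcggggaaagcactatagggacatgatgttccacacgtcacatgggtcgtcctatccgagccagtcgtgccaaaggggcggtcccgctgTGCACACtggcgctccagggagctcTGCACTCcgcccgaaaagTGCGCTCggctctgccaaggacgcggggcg
Mt2: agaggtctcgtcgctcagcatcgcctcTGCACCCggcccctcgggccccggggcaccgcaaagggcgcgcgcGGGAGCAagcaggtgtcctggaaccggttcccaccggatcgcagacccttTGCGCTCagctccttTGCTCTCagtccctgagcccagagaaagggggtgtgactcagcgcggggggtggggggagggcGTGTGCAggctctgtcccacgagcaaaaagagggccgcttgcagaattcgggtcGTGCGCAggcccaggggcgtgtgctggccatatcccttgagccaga
Tnfrsf12a: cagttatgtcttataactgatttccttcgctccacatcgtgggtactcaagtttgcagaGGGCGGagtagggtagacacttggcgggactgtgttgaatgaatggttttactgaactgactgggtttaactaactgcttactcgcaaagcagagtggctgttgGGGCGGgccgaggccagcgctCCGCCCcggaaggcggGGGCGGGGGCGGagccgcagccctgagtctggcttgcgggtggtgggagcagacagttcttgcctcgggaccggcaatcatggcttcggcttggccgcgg
Dynll1: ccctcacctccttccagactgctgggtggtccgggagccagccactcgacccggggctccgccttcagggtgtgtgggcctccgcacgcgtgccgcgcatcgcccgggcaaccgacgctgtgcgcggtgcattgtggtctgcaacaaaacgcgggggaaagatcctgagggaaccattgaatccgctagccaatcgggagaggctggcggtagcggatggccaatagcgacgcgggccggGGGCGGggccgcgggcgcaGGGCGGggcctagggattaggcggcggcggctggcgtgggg
Lgals3: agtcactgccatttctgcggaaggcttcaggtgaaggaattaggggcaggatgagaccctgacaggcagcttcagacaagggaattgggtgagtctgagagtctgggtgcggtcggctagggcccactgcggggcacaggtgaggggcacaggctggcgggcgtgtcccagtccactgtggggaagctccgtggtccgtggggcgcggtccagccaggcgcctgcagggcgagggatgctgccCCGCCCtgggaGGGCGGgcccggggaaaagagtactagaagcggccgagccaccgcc
Rps4x: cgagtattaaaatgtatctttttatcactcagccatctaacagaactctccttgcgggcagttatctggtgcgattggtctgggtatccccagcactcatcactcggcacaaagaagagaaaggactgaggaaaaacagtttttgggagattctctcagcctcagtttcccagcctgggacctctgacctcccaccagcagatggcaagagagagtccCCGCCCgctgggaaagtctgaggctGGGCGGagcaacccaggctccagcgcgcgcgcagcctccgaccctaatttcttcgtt
The string TGCNCNC was found 3 times in the Mt1 window and 6 times in the Mt2 window, and not every match fits the stricter core. It is a loose motif, present in 51.0% of 32851 such windows, and 2.30% held 4 or more copies. It reached that count in Mt2, which was not called, and not in Mt1. It was also found once each in Tnfrsf12a and Dynll1, 2 times in Rps4x and 0 times in Lgals3. The GC box was found 5 times in Tnfrsf12a, 2 times each in Dynll1, Lgals3 and Rps4x, 3 times in Mt1 and 0 times in Mt2, and 35.7% of all windows held it. In Mt1, 1 pair of matches to the different motifs overlapped. A match is a run of letters and not a measured binding site.

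Mt1 had the smallest p. Its level was 148.9, 147.5 and 150.8 CPM in STC1, against 129.7, 138.4 and 140.3 CPM in Con. With TGF-β1 it was 170.6, 160.5 and 157.6 CPM in TS, against 148.7, 146.3 and 147.1 CPM in TGFb1. Within each background every library with stanniocalcin-1 lay above every library without it, while the groups of 6 overlapped because TGFb1 lay near STC1. The additive log2 fold change was 0.14 (SE 0.023, 95% interval 0.092 to 0.19), with an adjusted p of 0.00308 in edgeR's quasi-likelihood test. Tnfrsf12a, the TWEAK receptor, had 143.6, 138.2 and 134.7 CPM in STC1, against 122.6, 126.8 and 131.6 CPM in Con. It had 149.5, 149.9 and 143.8 CPM in TS, against 138.5, 135.3 and 134.8 CPM in TGFb1. Again neither background showed an overlap. Its log2 fold change was 0.12 (SE 0.023, adjusted p = 0.0169, edgeR).

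Dynll1 encodes a small dimeric hub protein that serves dynein and many other partners. It had 177.5, 185.8 and 175.6 CPM in STC1, against 166.4, 164.9 and 168.2 CPM in Con, and 195.3, 193.2 and 190.0 CPM in TS, against 183.1, 181.1 and 175.2 CPM in TGFb1. The STC1 and TGFb1 libraries shared a range, and within each background the groups stood apart. The log2 fold change was 0.11 (SE 0.021, adjusted p = 0.0358, edgeR). Lgals3, whose lectin product is secreted and also found inside the cell, had 422.1, 404.3 and 412.5 CPM in STC1, against 392.0, 384.8 and 385.2 CPM in Con. It had 428.4, 423.5 and 439.7 CPM in TS, against 406.9, 414.1 and 391.0 CPM in TGFb1. Here too there was no overlap within a background, and the log2 fold change was 0.092 (SE 0.020, adjusted p = 0.0494, edgeR).

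Rps4x was the only one of the 5 genes in which all 6 libraries with stanniocalcin-1 lay above all 6 without it. It had 2123, 2096 and 2118 CPM in STC1, against 2023, 2006 and 2028 CPM in Con. It had 2174, 2164 and 2168 CPM in TS, against 1965, 2030 and 2064 CPM in TGFb1. The highest library without the protein, the third of TGFb1, was thus below the lowest with it, the second of STC1. The log2 fold change was 0.084 (SE 0.018, adjusted p = 0.0494, edgeR). Ribosomal protein genes have many processed pseudogenes, and the level is uncertain where counting could split their reads. Over all genes tested, 46 (0.391%) were higher and 45 (0.383%) lower without overlap within both backgrounds, and 11 (0.0935%) were higher without overlap between the groups of 6.

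**Figure D1:**
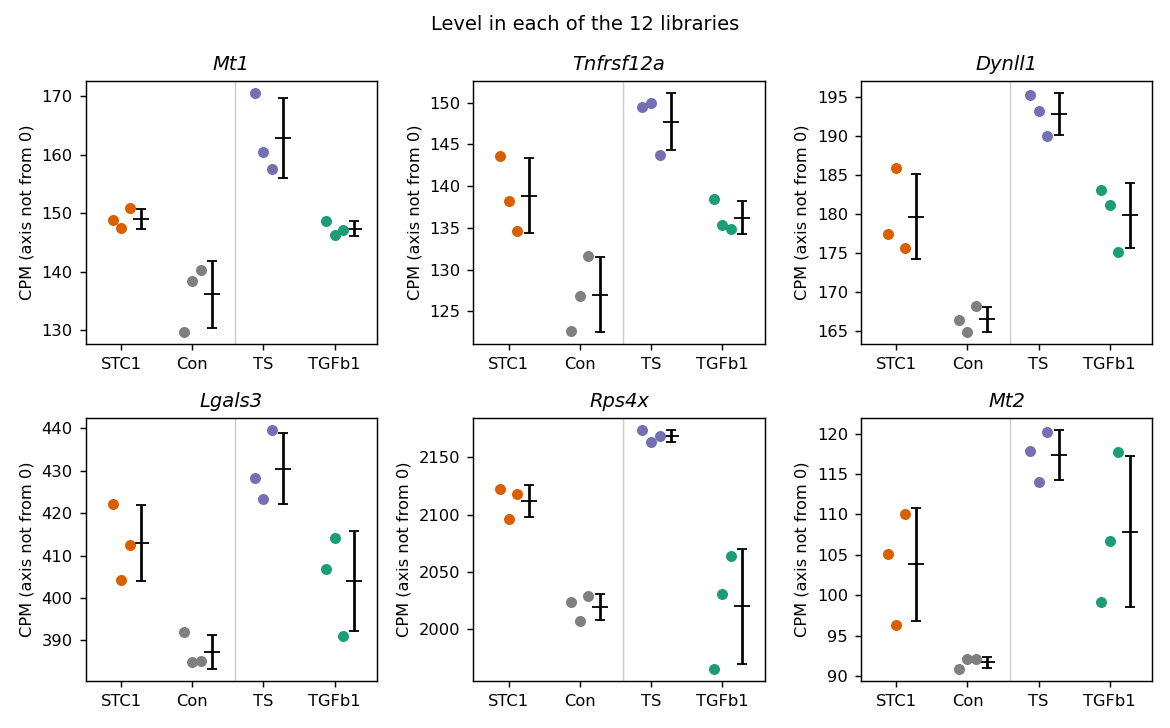
Levels in CPM of the 5 called genes and Mt2 in each of the 12 libraries (points), with the mean and SD of each group of 3 (bars), on axes that do not start at 0. In the 5 called genes every STC1 library lies above every Con library and every TS library above every TGFb1 library, and in Mt2 the third TGFb1 library, at 117.7 CPM, lies among the TS libraries.

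The calls rested unequally on single libraries. Mt1 was called in all 12 fits that left out 1 library, with a log2 fold change between 0.12 and 0.15. Tnfrsf12a was called in 9 of the 12 and was lost without STC1 1, Con 2 or TGFb1 2, with an adjusted p of at most 0.0751. Dynll1 was called in 6 and was lost without STC1 1, STC1 2, Con 2, TS 1, TGFb1 2 or TGFb1 3, with an adjusted p of up to 0.214. Rps4x was called in 5 and was lost without STC1 1, STC1 3, Con 2, TS 1, TS 2, TGFb1 1 or TGFb1 2, with an adjusted p of up to 0.223. Lgals3 was called in 3, those without STC1 2, Con 1 or TS 2, and its adjusted p was at most 0.238 in the other 9. The log2 fold changes of these 4 genes stayed positive in all 12 fits, and the lowest among them was 0.073, for Rps4x. The number of called genes over the whole table was 1 without STC1 1, without Con 2 or without TGFb1 2, and 15 without TS 3.

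**Figure D2:**
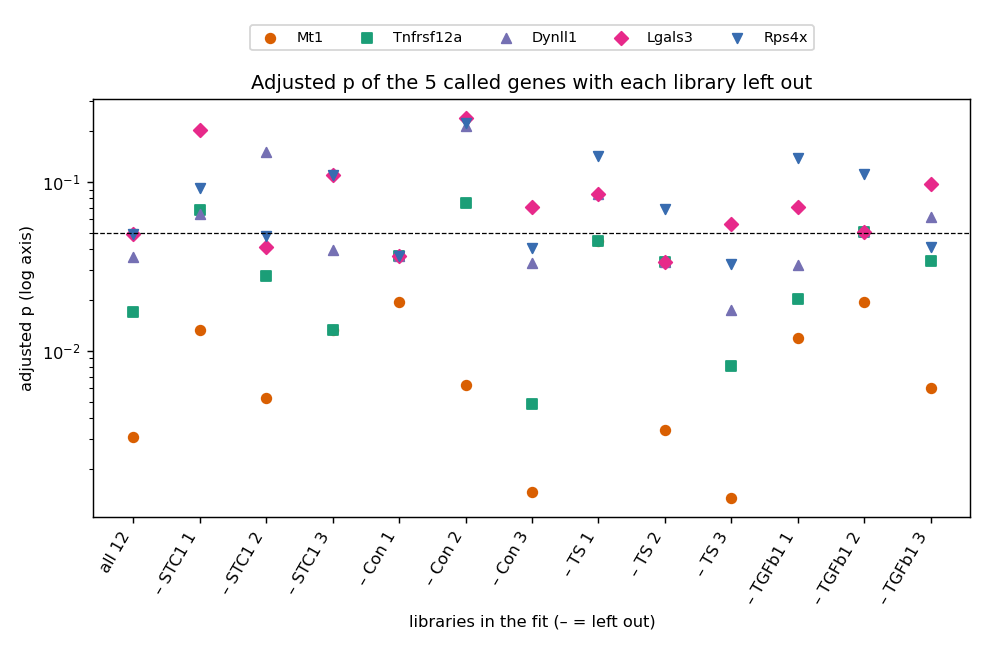
Adjusted p (log axis) of the 5 called genes in the fit to all 12 libraries and in each fit with 1 library left out, with the threshold of 0.05 dashed. Mt1 stays under the line in all fits, and each of the other 4 lies above it in at least 3 fits.

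Because the design holds both backgrounds, the average can be set beside its parts. The 5 genes were called on that average, with any difference between backgrounds left in the error. That choice favours the same sign, a small difference and no overlap within a background, so none of these is separate support. For all 5 genes the log2 fold change had the same sign without and with TGF-β1. It was 0.13 for STC1 over Con and 0.14 for TS over TGFb1 in Mt1, 0.13 and 0.12 in Tnfrsf12a, 0.11 and 0.10 in Dynll1, 0.092 and 0.092 in Lgals3, and 0.065 and 0.10 in Rps4x. None of the 5 was called in either background alone, where the adjusted p of edgeR ranged from 0.0749 to 0.560. The difference between backgrounds was not called for any of them, with an unadjusted p between 0.281 for Rps4x and 0.987 for Lgals3 by edgeR's interaction term. Over all genes that term called 0 of 11763 (0%), with 975 (8.29%) at an unadjusted p under 0.05, and DESeq2 and limma-voom also called 0.

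In STC1 against Con alone, edgeR called 6 genes (0.051%), and 0 of them were among the 5 of the additive fit. They were Adamts1 and Adamts5, secreted proteases of matrix proteoglycans, Vps26b, a retromer subunit, Tfrc, the transferrin receptor, Arhgdib, and the cytokine gene Il6. None of these 6 passed the threshold in the additive fit. Adamts1 had a log2 fold change of -0.20 for STC1 over Con and 0.018 for TS over TGFb1, and its additive value of -0.092 had an adjusted p of 0.642. Tfrc had 0.17 and -0.0015, Arhgdib 0.13 and -0.016, Il6 0.48 and 0.022, Adamts5 -0.14 and -0.0070, and Vps26b -0.19 and -0.061 on the same scale. The additive adjusted p of these 5 genes lay between 0.0898 for Vps26b and 0.513 for Arhgdib. In TS against TGFb1, edgeR called 0 genes (0%), with 765 at an unadjusted p under 0.05, while DESeq2 called 1, Rps4x, and limma-voom 0. Across all 11763 genes the fold changes of the separate backgrounds, which share no libraries, had a Spearman correlation of -0.0042, and 49.5% of genes had the same sign in both.

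**Figure D3:**
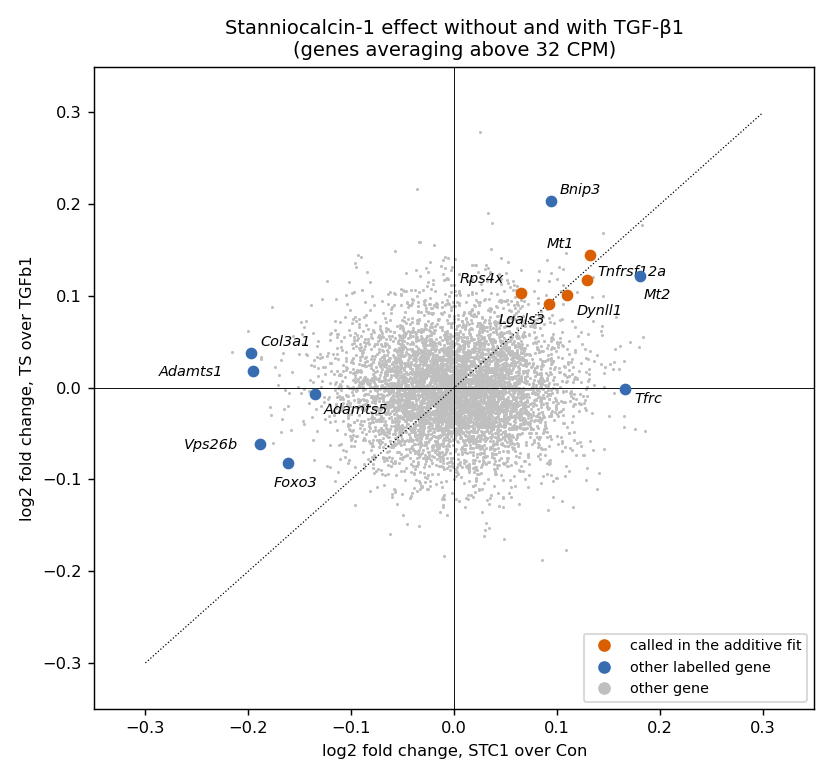
Log2 fold change of TS over TGFb1 against that of STC1 over Con for genes whose mean CPM had a log2 above 5 (points). Called genes are in orange, other named genes in blue, and the line of equality is dotted. The 5 called genes, which were chosen by the average of both values, lie close to the line. Adamts1, Adamts5, Col3a1 and Tfrc lie near the horizontal axis.

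The genes with the next smallest p for a higher level were Bnip3, Ldha, Rps14 and Mif, and none was called in the additive fit by edgeR. Ldha was also called by limma-voom and DESeq2, Rps14 by DESeq2, and all 4 as the average of a model with 1 mean per group. Bnip3, a mitophagy receptor induced by hypoxia, had 82.08, 82.10 and 86.67 CPM in STC1, against 76.35, 75.38 and 83.55 CPM in Con, and 97.51, 90.20 and 101.7 CPM in TS, against 83.18, 80.16 and 87.87 CPM in TGFb1. The third Con library overlapped STC1, and TS stood above TGFb1. The additive log2 fold change of Bnip3 was 0.15 (SE 0.032, adjusted p = 0.0593, edgeR), a larger value than that of Mt1 with a wider error. Lactate dehydrogenase A (Ldha) had 0.087 (adjusted p = 0.0653, edgeR), Rps14 had 0.083 and the cytokine Mif 0.092, both with an adjusted p of 0.083.

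On the lower side the smallest p belonged to Vps26b and Foxo3, and edgeR called neither in the additive fit, although the average of a model with 1 mean per group called Vps26b. Foxo3, a forkhead transcription factor that AKT keeps out of the nucleus, had 63.20, 63.09 and 66.01 CPM in STC1, against 74.15, 72.23 and 68.58 CPM in Con, and 61.48, 61.89 and 60.32 CPM in TS, against 65.71, 63.26 and 65.54 CPM in TGFb1. Within each background no library with stanniocalcin-1 reached one without it. The log2 fold change was -0.12 (SE 0.029, adjusted p = 0.0901, edgeR). The next were Aldh1l2, a mitochondrial enzyme of folate metabolism (-0.091), Ppp1r9b, the spine protein spinophilin (-0.097), Lox, the collagen cross-linking enzyme (-0.075), Fbxl6 (-0.15), R3hdm2 (-0.10) and Rock1, a protein kinase (-0.097). Their adjusted p lay between 0.135 and 0.216 (edgeR), and DESeq2 called Lox. Of these, Ppp1r9b and Fbxl6 had every library with the protein below every library without it, as had 13 genes (0.111%) over the whole table.

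Metallothioneins and zinc transporters were 13 tested genes, of which 1 was called, Mt1. Mt2 had 105.1, 96.31 and 110.1 CPM in STC1, against 90.86, 92.04 and 92.09 CPM in Con, and 117.9, 114.0 and 120.2 CPM in TS, against 99.18, 106.6 and 117.7 CPM in TGFb1. Its log2 fold change of 0.15 (SE 0.034, adjusted p = 0.113, edgeR) was larger than that of Mt1 and less precise. Slc30a6, a zinc transporter of the Golgi, had 0.091 and an adjusted p of 0.571. The median of the list was 0.019, beside -0.00061 over all genes tested, and was 0.0091 without TGFb1 3, 0.010 without STC1 3 and 0.012 without Con 3.

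All 38 ribosomal protein genes were tested and had a positive log2 fold change. Of these, edgeR called 1 (Rps4x), limma-voom 1 and DESeq2 12 of the 36 with an adjusted p. In the whole table DESeq2 gave an adjusted p for 589 genes and called 35 higher and 7 lower. Of the 38 genes, 25 were higher and 0 lower at an unadjusted p under 0.05 in edgeR. Over all genes, 506 (4.3%) were higher at that threshold and 418 (3.55%) lower. The median was 0.047, with 0.060 for STC1 over Con and 0.038 for TS over TGFb1, and it lay between 0.042 and 0.055 with any 1 library left out. Each gene's log2 level was set relative to its mean over the 12 libraries. The median of these values over the 38 genes was -0.0019, 0.012 and -0.0033 in STC1, against -0.079, -0.073 and -0.023 in Con. It was 0.065, 0.058 and 0.035 in TS, against 0.032, 0.00084 and 0.0095 in TGFb1. The groups did not overlap within either background. The transcripts of this list are short, with a median of 950 nt against 3189 nt over all genes, and with the trend against length and GC content subtracted the median was 0.017. The part of transcript length in the result was not tested further.

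Genes of glycolysis and of the hypoxia response gave 10 higher (37.0%) and 0 lower of 27 at an unadjusted p under 0.05. Over all genes the shares at that threshold were 4.3% higher and 3.55% lower. Of these 27 genes, edgeR called none in the additive fit and limma-voom 1 (Ldha). DESeq2 called 5 of the 9 with an adjusted p (Aldoa, Eno1, Gapdh, Ldha and Tpi1). The 10 were Bnip3, Bnip3l, Ldha, Pdk1, Aldoa, Tpi1, Eno1, Pgk1, Gpi1 and Gapdh, most of them enzymes of the glycolytic pathway. Pdk1, the kinase that holds pyruvate dehydrogenase inactive, had 67.74, 68.24 and 67.75 CPM in STC1, against 65.28, 62.21 and 64.90 CPM in Con. It had 75.87, 76.78 and 75.30 CPM in TS, against 70.21, 66.95 and 71.59 CPM in TGFb1, so that neither background overlapped. The log2 fold change of Pdk1 was 0.11 (SE 0.028, adjusted p = 0.156, edgeR), and that of Aldoa was 0.077 with an adjusted p of 0.150. The list had a median of 0.032, with 0.042 and 0.033 in the separate backgrounds, and 0.033 with the length and GC trend subtracted. Several of these genes, among them Gapdh, Ldha, Aldoa and Tpi1, have pseudogenes that could take reads. Nuclear genes of the respiratory chain had 7 higher and 1 lower of 40 at that threshold and a median of 0.027, which was -0.0041 with the trend subtracted.

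Cytokine and chemokine genes, beside 4.3% higher and 3.55% lower over all genes, gave 6 higher (28.6%) and 0 lower of 21 at an unadjusted p under 0.05. None was called by edgeR or limma-voom in the additive fit, and DESeq2 called 1 (Il1rl1) of the 3 with an adjusted p. The median log2 fold change was 0.067, with 0.094 for STC1 over Con and 0.041 for TS over TGFb1, and 0.038 with the trend subtracted. It was 0.031 without TS 1, 0.038 without Con 1, 0.043 without TGFb1 2 and 0.044 without TGFb1 1, and reached at most 0.082 with any other library left out. Il1rl1, a receptor for interleukin-33 that the list holds, had 3915, 3968 and 4061 CPM in STC1, against 3551, 3735 and 3758 CPM in Con. With TGF-β1 it had 4139, 4160 and 4274 CPM in TS, against 3994, 4141 and 4196 CPM in TGFb1. STC1 stood above Con, while TS and TGFb1 overlapped, and the additive value was 0.071 (adjusted p = 0.207, edgeR). Il6 had 9.33, 8.32 and 9.73 CPM in STC1, against 6.34, 7.46 and 5.79 CPM in Con, and 8.10, 8.38 and 8.50 CPM in TS, against 8.002, 8.478 and 8.111 CPM in TGFb1. The higher Il6 level was thus seen without TGF-β1, and the difference between backgrounds had an adjusted p of 0.354 (edgeR). The chemokine Ccl2 had a log2 fold change of 0.070 and an adjusted p of 0.529.

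Collagen genes leaned the other way. Beside 4.3% higher and 3.55% lower over all genes, 0 of 18 collagens were higher and 6 lower (33.3%) at an unadjusted p under 0.05. None was called by edgeR or limma-voom, and DESeq2 called 1 (Col6a3) of the 10 with an adjusted p. The 6 were Col6a1, Col6a2 and Col6a3, which together form collagen VI, with Col1a2, Col4a1 and Col5a1. Col6a3 had 358.4, 358.0 and 354.3 CPM in STC1, against 401.6, 371.8 and 373.4 CPM in Con, and 345.5, 354.2 and 336.2 CPM in TS, against 364.3, 359.4 and 347.1 CPM in TGFb1. STC1 lay below Con, and TS overlapped TGFb1. Its log2 fold change was -0.074 (SE 0.021, adjusted p = 0.221, edgeR). Col1a1, a chain of the main fibrillar collagen, had -0.079 with a 95% interval from -0.18 to 0.023, and Col3a1 had -0.20 for STC1 over Con and 0.038 for TS over TGFb1.

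The median of the collagens was -0.040, with -0.066 for STC1 over Con and -0.0091 for TS over TGFb1. Median log2 levels over the list, each gene relative to its mean of all libraries, were 0.055, -0.019 and -0.027 in STC1, against 0.15, 0.050 and 0.028 in Con. They were -0.039, -0.011 and -0.072 in TS, against -0.025, -0.021 and -0.069 in TGFb1. The first Con library was the highest of all, the STC1 and Con libraries overlapped, and so did TS and TGFb1. With any 1 library left out the median lay between -0.049 and -0.025, the value without the first Con library. Collagen transcripts are long, with a median of 6284.5 nt, and with the trend subtracted the median was -0.021. The part of length was not tested further. Of 33 other matrix genes, 1 was higher (3.03%) and 4 were lower (12.1%) at an unadjusted p under 0.05, beside 4.3% and 3.55% over all genes. The 4 were Nid1, Nid2, Hspg2 and Vcan, of which the first 3 encode basement membrane proteins. The median of these 33 was -0.047 for STC1 over Con, with 6 positive, and 0.026 for TS over TGFb1, with 21 positive. The additive median of -0.024 was -0.011 with the trend subtracted, and lay between -0.014 and -0.0097 without Con 1 or without any 1 of the STC1 libraries. DESeq2 called 1 of them lower, Nid1, and edgeR none.

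Genes of the PI3K/AKT pathway gave 1 higher (2.63%) and 5 lower (13.2%) of 38 at an unadjusted p under 0.05. Over all genes the shares were 4.3% and 3.55%. Of the 38, edgeR and limma-voom called none. The median was -0.019, with -0.043 for STC1 over Con and -0.0040 for TS over TGFb1. It was -0.0088 without Con 1, -0.0090 without STC1 2 and -0.012 without STC1 1. These transcripts are long, with a median of 6294.5 nt, and with the length and GC trend subtracted the median was -0.0062. The 5 were Foxo3, Gsk3b, a kinase that AKT inhibits, Irs2 and Insr, an adaptor and the receptor of insulin, and Pdgfrb, a receptor for platelet-derived growth factors. Gsk3b had 82.20, 87.99 and 85.63 CPM in STC1, against 87.15, 90.29 and 93.61 CPM in Con, and 78.25, 76.83 and 77.85 CPM in TS, against 81.78, 83.85 and 80.53 CPM in TGFb1. The STC1 and Con libraries overlapped and TS lay below TGFb1. The additive value was -0.081 (adjusted p = 0.336, edgeR). Genes that FOXO factors activate gave 0 higher and 2 lower of 16, Irs2 and the cell cycle inhibitor Cdkn1b, with a median of -0.022, which was -0.042 without STC1 3 and -0.036 without TGFb1 2. Transcript levels do not measure the activity of the kinases.

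The hormone's own axis holds its paralog, PAPP-A proteases and insulin-like growth factor genes. It gave 0 higher and 3 lower (27.3%) of 11 tested at an unadjusted p under 0.05, with none called by edgeR or limma-voom. Over all genes 4.3% were higher and 3.55% lower at that threshold. The median of the list was -0.024, with -0.052 for STC1 over Con and 0.00021 for TS over TGFb1, where 6 of 11 were positive. With the length and GC trend subtracted it was -0.017. The 3 lower genes were Pappa, Pappa2 and Igf2r, whose transcripts are long, at 11027, 9518 and 8887 nt. The part of length was not tested. Pappa, the gene for the protease that stanniocalcins inhibit, had 17.21 ± 2.002 CPM with the protein and 18.55 ± 1.39 CPM without it (SD over both backgrounds, n = 6 each). The log2 fold change of Pappa was -0.11 with an adjusted p of 0.622 (edgeR). Its relative Pappa2 had -0.19 for STC1 over Con and 0.034 for TS over TGFb1. Calcium and phosphate transport genes gave 1 higher and 4 lower of 22, the lower ones being Stim1, the calcium sensor of the endoplasmic reticulum, the mitochondrial uniporter Mcu, Letm1 and the release channel Itpr1. The higher one was calreticulin (Calr). Its levels lay between 1796 and 1817 CPM with stanniocalcin-1 and between 1742 and 1792 CPM without it. It was 1 of 11 genes (0.0935%) higher without overlap between the groups of 6. Its log2 fold change was 0.043 with an adjusted p of 0.524 (edgeR), and DESeq2 called it.

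Contractile genes, of which 21 of 23 were tested, had a median of -2.5e-06 on the log2 scale, which averaged -0.040 for STC1 over Con, with 7 of 21 positive, and 0.030 for TS over TGFb1, with 16 of 21 positive. Interferon-stimulated genes, of which 19 of 27 were tested, had 0.00080, with 0.026 and -0.025 in the same order. Acta2, the smooth muscle actin that marks myofibroblasts, had 372.6 ± 9.17 CPM with stanniocalcin-1 and 370.4 ± 25.3 CPM without it (SD over both backgrounds, n = 6 each). Its levels were 375.0, 385.6 and 379.4 CPM in STC1, against 390.6, 386.5 and 395.2 CPM in Con. They were 362.2, 363.4 and 370.0 CPM in TS, against 370.6, 336.8 and 342.4 CPM in TGFb1. The 95% interval of the additive log2 fold change ran from -0.034 to 0.054. The log2 fold change of Acta2 was -0.040 for STC1 over Con and 0.061 for TS over TGFb1, and the difference had an unadjusted p of 0.0144 and an adjusted p of 0.482 (edgeR). Fn1, fibronectin, had a log2 fold change of -0.033, Ccn2 -0.034 and the inhibitory SMAD gene Smad7 0.076, with adjusted p from 0.731 to 0.834. Of 23 TGF-β targets, 2 were higher (8.70%) and 1 was lower (4.35%) at an unadjusted p under 0.05, beside 4.3% and 3.55% over all genes. None of these targets was called by edgeR or limma-voom. Cell cycle genes had a median of 0.0063 on average, with 0.037 for STC1 over Con and -0.021 for TS over TGFb1.

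**Figure D4:**
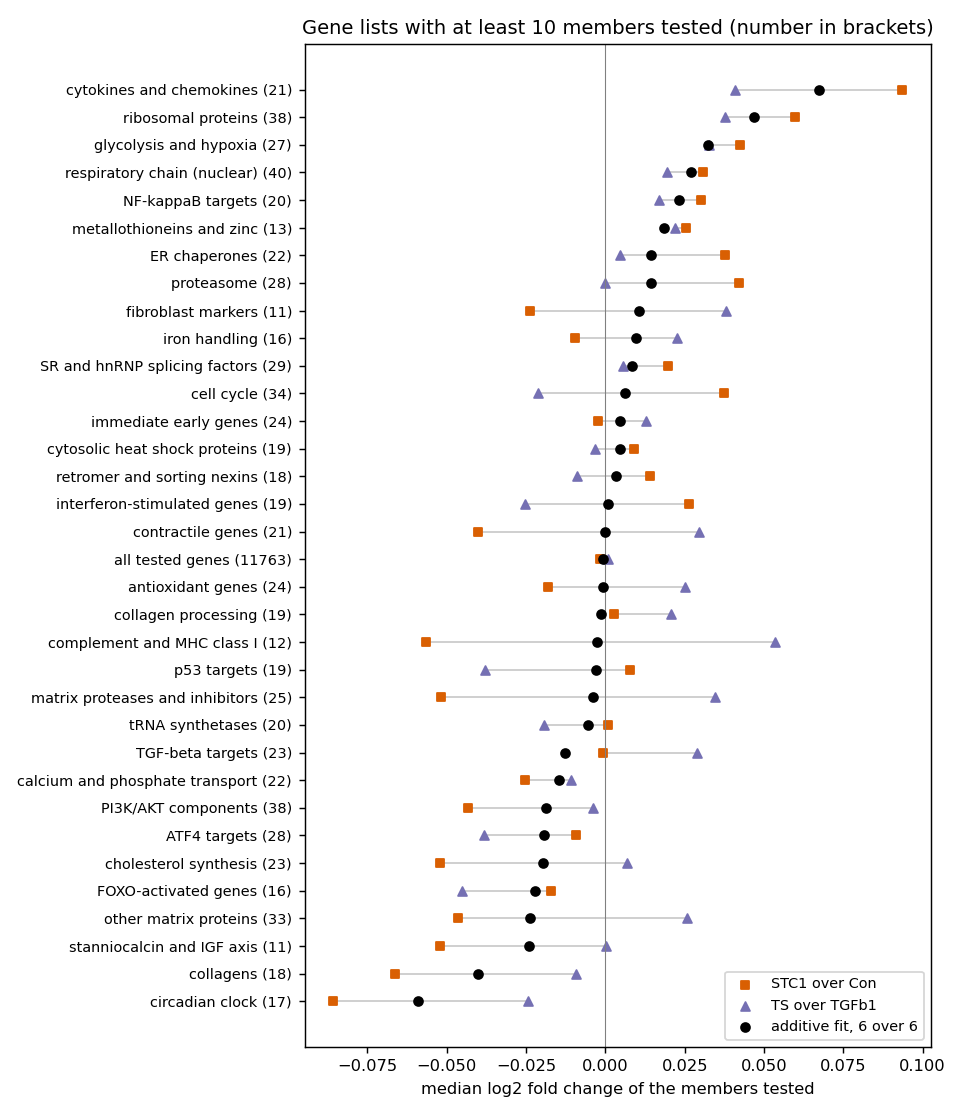
Median log2 fold change of the tested members of the gene lists drawn, each with at least 10 of them, in the additive fit (black), for STC1 over Con (orange) and for TS over TGFb1 (purple). Cytokines, ribosomal proteins and glycolysis lie at the upper end and collagens and circadian clock genes at the lower end, and all medians lie within 0.1 of 0.

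The coefficient varied with transcript length across the whole table. Of the tested genes, 11482 (97.6%) had a length, that of the longest protein-coding GENCODE transcript tied to the gene number. The decile with the shortest transcripts, between 216 and 1344 nt, had a median log2 fold change of 0.032, and the decile with the longest, from 6761 nt, had -0.018. At an unadjusted p under 0.05 the shortest decile held 168 higher and 10 lower genes, and the longest 11 higher and 97 lower. Both backgrounds gave nearly the same values, with 0.033 and 0.032 in the shortest decile and -0.018 and -0.016 in the longest. The rank correlation with length across genes was -0.26, and across genes that with GC content was -0.0048, being -0.19 for STC1 over Con and 0.21 for TS over TGFb1. Genes are not independent replicates.

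Per library, the median of the shortest decile minus that of the longest was 0.0083, 0.0072 and -0.021 in STC1, against -0.071, -0.065 and -0.029 in Con. It was 0.080, 0.040 and 0.042 in TS, against 0.027, 0.011 and -0.0037 in TGFb1. The libraries with stanniocalcin-1 were higher within each background, and the groups of 6 overlapped. Of the 5 called genes, Tnfrsf12a, Mt1 and Rps4x were in the shortest decile, with lengths of 984, 1085 and 975 nt, Lgals3 had 1419 nt and Dynll1 2030 nt. With the trend subtracted, and with no test, their log2 fold changes were 0.11 for Mt1, 0.097 for Tnfrsf12a, 0.094 for Dynll1, 0.074 for Lgals3 and 0.053 for Rps4x. The part of length, or of RNA quality, in these calls was not tested.

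**Figure D5:**
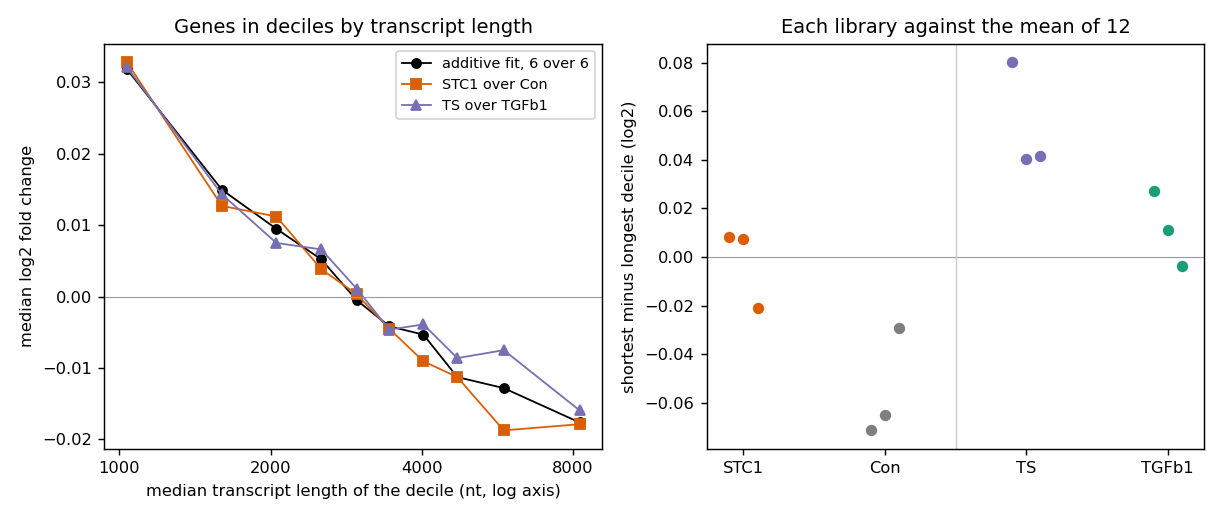
Left, median log2 fold change in deciles of the tested genes by transcript length (log axis) for the additive fit and each background. Right, the shortest decile minus the longest in each library relative to the mean of 12, where STC1 lies above Con and TS above TGFb1.

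The precision of the comparison sets what sizes could be seen. Among the 6154 genes with a mean log2 CPM above 5 the median SE was 0.028. The 95% interval lay within a fold of 1.1 either way for 5841 of them (94.9%) and within a fold of 1.2 for 6150 (99.9%), and the widest limit was 0.47 on the log2 scale. In counts simulated for this comparison over 11708 genes, 54% of genes changed by a fold of 1.1 were recovered, 89.8% at 1.2 and 92% at 1.5. The simulation gave 130 calls against 5 in the real libraries, so its adjusted threshold was less strict. It drew from trended dispersions, with no TGF-β1 effect and no length trend. These shares therefore do not give the recovery in the real libraries.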

How the data were processed

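For 16300 genes in 12 libraries the authors deposited expected counts, which are estimates with fractions, with between 88.5% and 89.1% of a library's values whole within 1e-06. GRCm39 is the build in the submitters' processing notes. Aligner, counter and use of strand are not given in the sources used here. Symbols were matched by gene number to RefSeq for 16177 genes, and the other 123 made up 0.123% of a library or less.

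Expected counts were rounded to whole numbers, filtered with filterByExpr and scaled by TMM. The main test was the quasi-likelihood test of edgeR 4.0.16 (R 4.3.3) with robust moderation, in an additive model with TGF-β1 as the other factor and 9 residual degrees of freedom. Tests were two-sided and Benjamini-Hochberg adjusted over all tested genes, and calls are at an adjusted p under 0.05. Separate backgrounds and their difference were tested in the same libraries with 1 mean per group. CPM are relative to TMM-scaled library sizes. DESeq2 1.42.0 and limma 3.58.1 were alternatives. The trend of the log2 fold change against transcript length and GC content was removed by loess, chosen after seeing the data.

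Named genes were called genes averaging at least 50 counts (up to 12 with the largest changes and 8 with the smallest p each way, filled up with uncalled genes), up to 4 genes of smallest p per list, and a fixed set. Other genes named from lists of those under an unadjusted p of 0.05 were chosen after their values were seen. The members and the 38 gene lists were chosen with earlier results of these data known. On simulated data 9 of 130 calls were false. P-values measure the spread between these libraries only. Same-numbered libraries were not treated as pairs. Some list members are not reported here.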

Additional observations from a re-analysis of the deposited data

How the results depend on the processing

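The 5 calls depended on the settings. The number called was 10 (9 higher, 1 lower) as the average of a model with 1 mean per group, 2 with library totals in place of TMM, 3 with RLE size factors, 25 (20 higher, 5 lower) with no low count filter, 3 with a mean of at least 50 counts, 2 without robust moderation and 42 (35 higher, 7 lower) with DESeq2. DESeq2 gave an adjusted p for 589 genes, among them 2 of the 5, Lgals3 and Rps4x, both called. It gave no adjusted p for Mt1, Tnfrsf12a or Dynll1, and limma-voom called 6. Fitted on libraries without TGF-β1 alone, 22 were called (10 higher, 12 lower), and on those with it 2 were called, both higher. A replicate block gave 19 (18 higher, 1 lower). Same-numbered libraries correlated between -0.0232 and 0.245, above 0.1 in 6 of 18 pairs, and differently numbered ones between -0.212 and 0.145. Of the 12 libraries, 10 correlated best with their own number. The labels name no batch, and the main fit used no pairing. Whether same-numbered libraries share an origin was not tested. With 1 library left out, between 1 and 15 were called, 1 to 14 higher and 0 to 1 lower. STC1 against Con called 13 with library totals, 57 with no filter, 13 with a mean of at least 50 counts, 3 without robust moderation, 52 with the block, 45 with DESeq2 and 0 to 44 with 1 library left out. TS against TGFb1 called 4 with no filter, 2 without robust moderation, 1 with the block, 1 with DESeq2 and 0 to 6 with 1 left out. The difference between backgrounds called 8, 1 and 5 genes with no filter, without robust moderation and with the block, and 0 to 2 with 1 left out. Leaving out 1 library left fewer values to separate, and 17 to 39 genes were then higher and 15 to 40 lower without overlap between the larger groups, and 78 to 135 higher and 61 to 126 lower within both backgrounds. The cause of the other differences was not tested. No called gene changed sign in these alternatives. With a mean of at least 50 counts, no endothelial marker was left to give a median.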

Other observations

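Genes of the circadian clock had the lowest median of the lists with at least 10 tested members, at -0.059 for 17 genes on the log2 scale, with -0.086 for STC1 over Con and -0.024 for TS over TGFb1. At an unadjusted p under 0.05, 1 was higher (5.88%) and 3 were lower (17.6%), beside 4.3% and 3.55% over all genes. Of the 17 clock genes, none was called by edgeR or limma-voom. Median log2 levels over the list, each gene relative to its mean of 12 libraries, were 0.0021, -0.051 and -0.048 in STC1, against 0.14, 0.029 and -0.0071 in Con. They were 0.0032, -0.041 and -0.026 in TS, against 0.012, -0.0076 and -0.0043 in TGFb1. The first Con library stood apart, and the groups overlapped in both backgrounds. With any 1 library left out the median lay between -0.085 and -0.047. The lower ones were Hlf, Per2 and Per3. Hlf, an output transcription factor of the clock, had 24.54, 17.54 and 19.46 CPM in STC1, against 27.99, 22.25 and 23.33 CPM in Con, and 16.89, 17.89 and 17.89 CPM in TS, against 19.80, 17.77 and 20.16 CPM in TGFb1. The groups overlapped in both backgrounds, and its log2 fold change was -0.20 with an adjusted p of 0.492 (edgeR). With the length and GC trend subtracted the median of the list was -0.056.

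Timp1, an inhibitor of matrix metalloproteinases, had 89.37, 86.23 and 87.81 CPM in STC1, against 81.30, 80.21 and 78.29 CPM in Con, and 90.38, 92.91 and 88.01 CPM in TS, against 88.90, 86.24 and 82.88 CPM in TGFb1. STC1 stood above Con, and TS and TGFb1 overlapped. Its log2 fold change was 0.10 (SE 0.026, adjusted p = 0.141, edgeR).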
